A study of Mus musculus with 24 samples.

Results

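Motile cilium genes were followed across 24 arrays of mouse lung and lung tumour. The group was named as 38 genes that encode the structure of the beating cilium or switch on its assembly, and 37 of them were measured among 18193 genes. Lrriq1 was the member absent from the annotation used. Each gene was read through 1 Affymetrix probe set that is annotated to that gene alone, the one with the highest mean over the 24 arrays. The rule that chose the members uses gene names and no measured values, but it was written with earlier results of these data known.

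All tumours were lung nodules dissected by eye from bitransgenic mice, with the transgene types L858R (4 arrays), L858R+T790M (5 arrays) and T790M (5 arrays), after 3 to 6 months on doxycycline-containing food. Both names stand for mutations in the kinase of the epidermal growth factor receptor (EGFR), L858R an activating one and T790M one that is linked to resistance against EGFR inhibitors. The 10 normal lungs came from littermates on doxycycline that carried no transgene or a single one, so that drug was common to tumours and controls. The L858R tumours and 5 normal lungs (mixed-strain normals) have the strain label FVB mixed, and the other tumours and the other 5 normal lungs (FVB normals) have the label FVB. The promoter behind the transgenes is not given in the sources used here, and neither are ages, nor whether nodules came from separate mice. The p-values therefore measure the spread between these samples.

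Motile cilia are hair-like organelles that cover the multiciliated cells of the airway lining and sweep mucus out of the lung. Their core, the axoneme, is a ring of doublet microtubules around a central pair. Dynein arms on the doublets generate the force, and radial spokes and the central apparatus set the rhythm. The transcription factor Foxj1 turns on this gene programme together with factors of the RFX family, which bind a promoter element called the X-box. Normal distal lung holds few multiciliated cells, most of them in the bronchioles.

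A promoter feature that the choice of genes did not use was more frequent among the members than among all measured genes. The 6-letter RFX motif GTTGCC, one arm of an X-box, was searched on both strands of 300-base promoters (250 bases before to 50 after the start; RefSeq, GRCm38.p6). It was present for 19 of the 32 measured members with a promoter in that table (59.4%), against 14.7% of the 14452 measured genes with one. Of all 32851 promoters in the table, 12.5% held it. The windows below show the RFX motif in 4 members among the lowest in tumours of their role (Dynlrb2, Ccdc153, Mlf1 and Spag16). They also show a tektin, the single member that matched the X-box-like repeat as searched (Pifo), and a member that did not fall (Ropn1l). Capitals mark GTTGCC, its reverse complement GGCAAC, or in Pifo the whole repeat, and each sequence is 150 bases read 5′ to 3′ on the strand of the gene.
Dynlrb2 (chr8:116504865-116505014, plus strand, bases -150 to -1 from the start): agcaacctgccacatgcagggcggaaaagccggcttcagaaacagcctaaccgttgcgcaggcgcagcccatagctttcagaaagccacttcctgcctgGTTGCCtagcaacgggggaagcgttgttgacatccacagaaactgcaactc
Ccdc153 (chr9:44240453-44240602, plus strand, bases -224 to -75 from the start): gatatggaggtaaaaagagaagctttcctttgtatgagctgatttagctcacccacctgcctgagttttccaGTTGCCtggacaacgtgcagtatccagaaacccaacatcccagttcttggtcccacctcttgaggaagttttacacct
Mlf1 (chr3:67373920-67374069, plus strand, bases -177 to -28 from the start): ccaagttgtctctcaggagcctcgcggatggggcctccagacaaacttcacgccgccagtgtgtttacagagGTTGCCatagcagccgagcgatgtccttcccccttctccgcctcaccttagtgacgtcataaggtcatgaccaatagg
Spag16 (chr1:69826795-69826944, plus strand, bases -175 to -26 from the start): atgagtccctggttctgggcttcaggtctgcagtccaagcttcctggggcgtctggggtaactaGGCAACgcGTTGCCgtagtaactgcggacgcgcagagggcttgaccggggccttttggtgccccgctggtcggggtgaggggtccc
Tekt1 (chr11:72361883-72362032, minus strand, bases -150 to -1 from the start): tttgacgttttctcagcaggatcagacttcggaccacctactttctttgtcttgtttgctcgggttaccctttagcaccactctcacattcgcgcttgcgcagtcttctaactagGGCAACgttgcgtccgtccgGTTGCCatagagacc
Pifo (chr3:106001498-106001647, minus strand, bases -150 to -1 from the start): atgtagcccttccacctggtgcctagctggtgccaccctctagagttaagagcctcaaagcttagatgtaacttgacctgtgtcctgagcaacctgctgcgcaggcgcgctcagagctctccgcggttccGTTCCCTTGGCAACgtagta
Ropn1l (chr15:31453690-31453839, minus strand, bases -150 to -1 from the start): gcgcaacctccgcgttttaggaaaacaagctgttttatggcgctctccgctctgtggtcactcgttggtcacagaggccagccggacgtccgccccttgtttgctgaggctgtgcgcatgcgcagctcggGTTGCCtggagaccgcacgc

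In Spag16 and Tekt1 the RFX motif occurred on both strands within the same window, and 6 members held 2 or more matches. The 25 matches began at a median of -37 bases from the start, 17 of them within the last 100 bases before it or beyond it, and 4 lay after the start. The X-box-like repeat searched (GTTNCC, up to 3 bases, GGNAAC) was found in Pifo alone, 3.12% of members against 1.07% of measured genes. That pattern needs GG at the start of its second arm. Second arms that start with AG, such as agcaac in Dynlrb2 and agtaac in Spag16, were therefore not counted. The forkhead motif TGTTTAC was found in 2 members, Ak7 and Mlf1 (6.25% against 3.40%). A 6-letter string with the RFX motif's letters in reverse order, CCGTTG, was added after the data were seen as a rough yardstick for base composition. It was present for 18.8% of members against 7.18% of measured genes. Unlike the RFX motif it holds the letter pair CG. The strings can also overlap, since CCGTTG ends in GTTG and the RFX motif begins with it, so they are not independent. Member promoters had a median GC content of 53.2%, and promoters of all measured genes 58.3%.

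**Figure D1:**
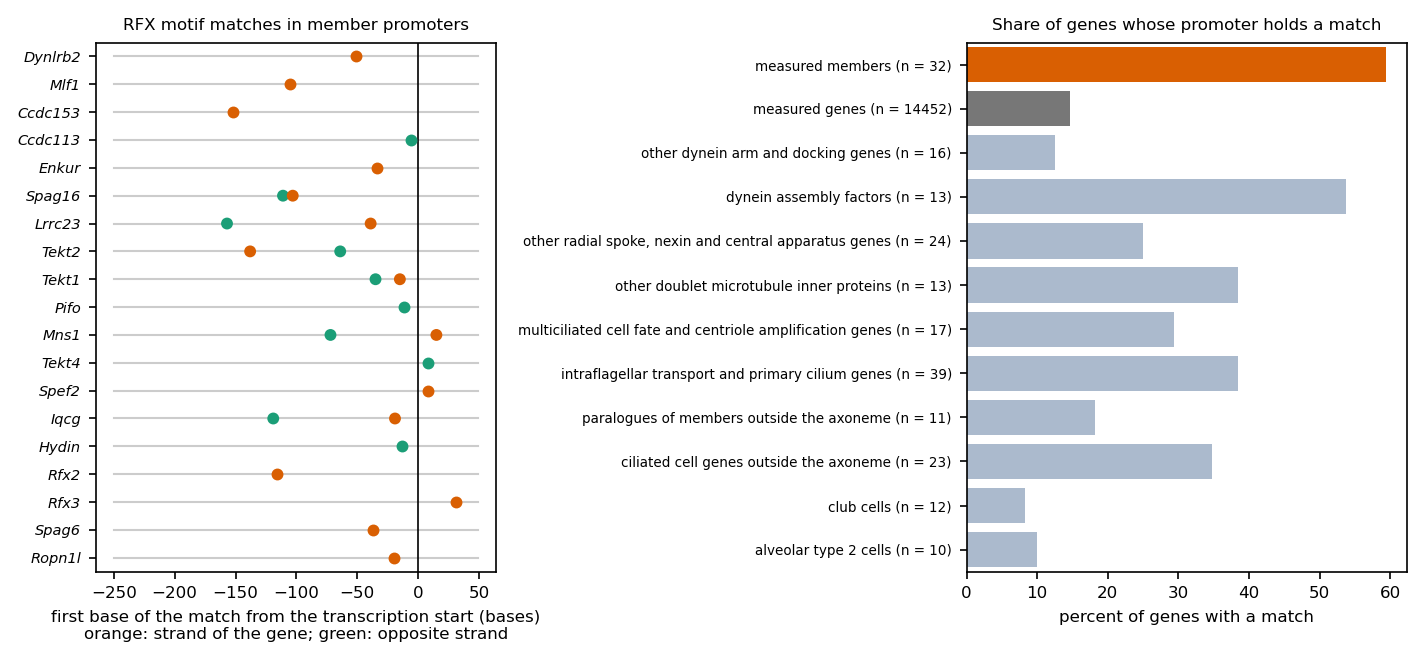
RFX motif matches. Left, position of each match in bases from the transcription start, for the 19 members with a match, ordered from the lowest mean tumour difference at the top, with colour giving the strand. Right, percent of genes whose promoter holds a match, by list; measured members stand at 59.4% and measured genes at 14.7%.

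The RFX motif was not limited to members that were lower in tumours. It was present for 16 of the 28 members that were lower in all 3 tumour types and have a promoter in the table, and for 3 of the other 4, namely Rfx3, Ropn1l and Spag6. The dynein assembly factors held it in 7 of 13 genes and the intraflagellar transport and primary cilium genes in 15 of 39, whereas the dynein arm and docking genes outside the members held it in 2 of 16. Club cell markers held it in 1 of 12 genes, and endothelial markers in 0 of 6. These are matches of letters in a window and not measured binding.

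In the tumours nearly the whole group was lower than in normal lung. At an adjusted p under 0.05 (limma), 33 of 37 members were called lower in L858R tumours, where 18.1% of all genes were. In L858R+T790M tumours 34 were called lower (16.1% of all genes), and 1, Ropn1l, higher (20.2% of all genes). In T790M tumours 33 were called lower (17.9% of all genes). No member was called higher in L858R or T790M tumours, where 23.3% and 21.9% of all genes were. The same 33 members were called lower in all 3 comparisons, 22 of them by at least 2-fold each time, and 3 members were called lower in none. The share of all genes called lower in all 3 can be no more than 16.1%, the smallest single share. For calls of at least 2-fold it can be no more than 5.07%. L858R+T790M and T790M tumours were compared with the same 5 FVB normals.

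The median member stood at -1.53 log2 units in L858R tumours, a 2.88-fold lower signal, at -1.48 in L858R+T790M tumours (2.79-fold) and at -1.20 in T790M tumours (2.29-fold). The median over all genes was 0.05, 0.03 and 0 in the same comparisons. Differences of at least 2-fold with a call were found for 27, 27 and 22 members, against 6.65%, 5.24% and 5.07% of all genes. Every tumour array lay below every matching normal array for 32 members in L858R tumours (16.0% of all genes), 33 in L858R+T790M tumours (13.0%) and 24 in T790M tumours (12.8%). In this bulk tissue, fewer multiciliated cells and less of these RNAs per cell cannot be told apart.

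**Figure D2:**
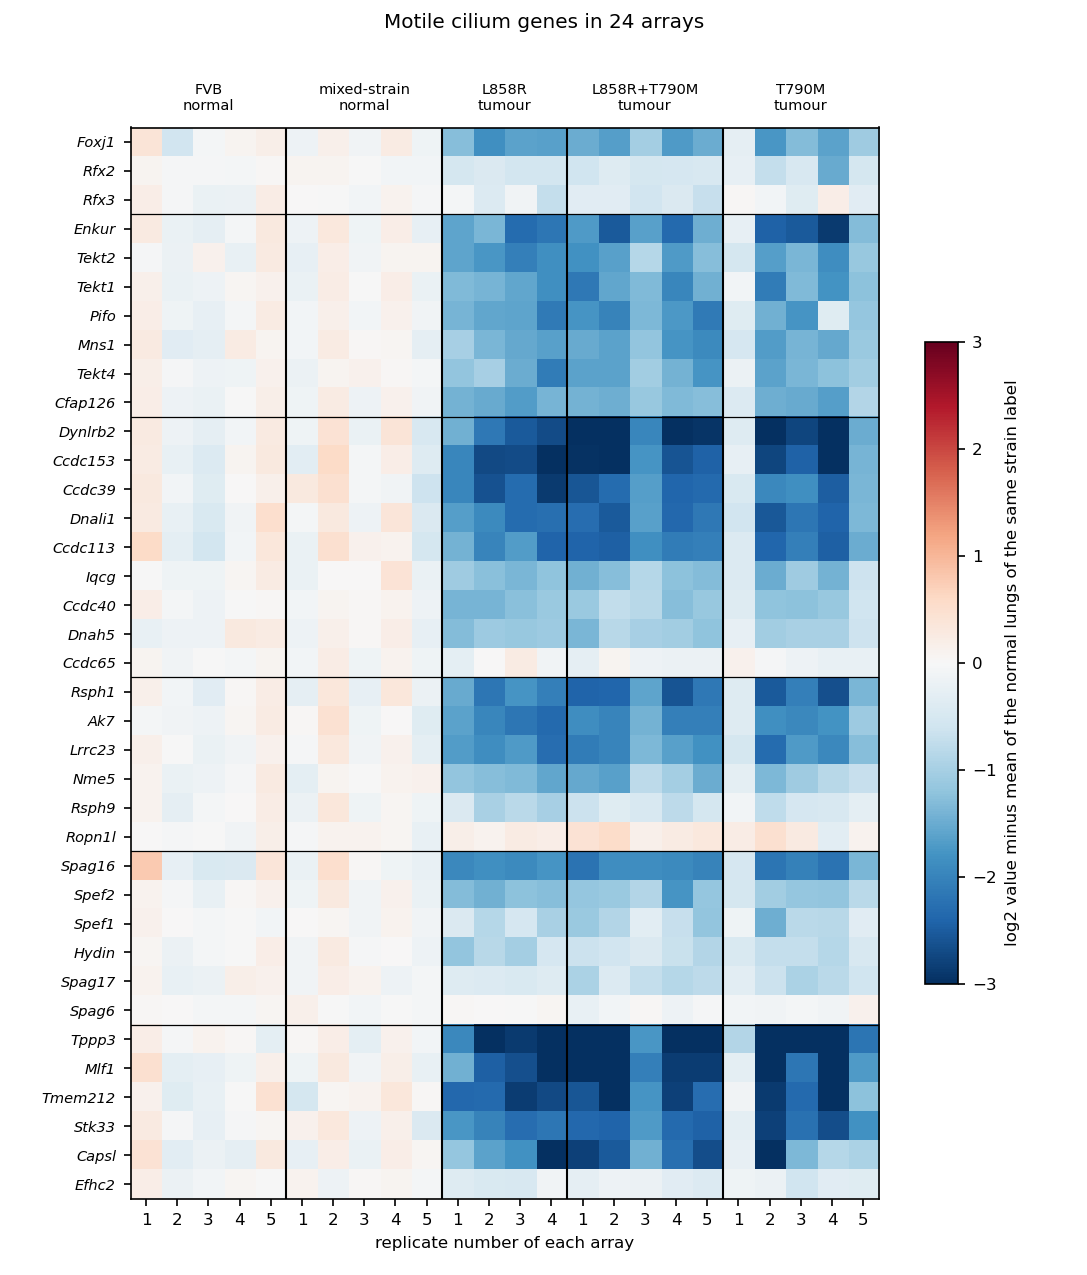
Log2 value of each of 37 members (rows, grouped by role) in each of 24 arrays (columns), minus the mean of the normal lungs with the same strain label; colours saturate at a difference of 3 in either direction. The tumour columns are blue for most rows, the column of T790M replicate 1 is pale, and Ccdc65, Ropn1l and Spag6 stay near the normal level.

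**Figure D3:**
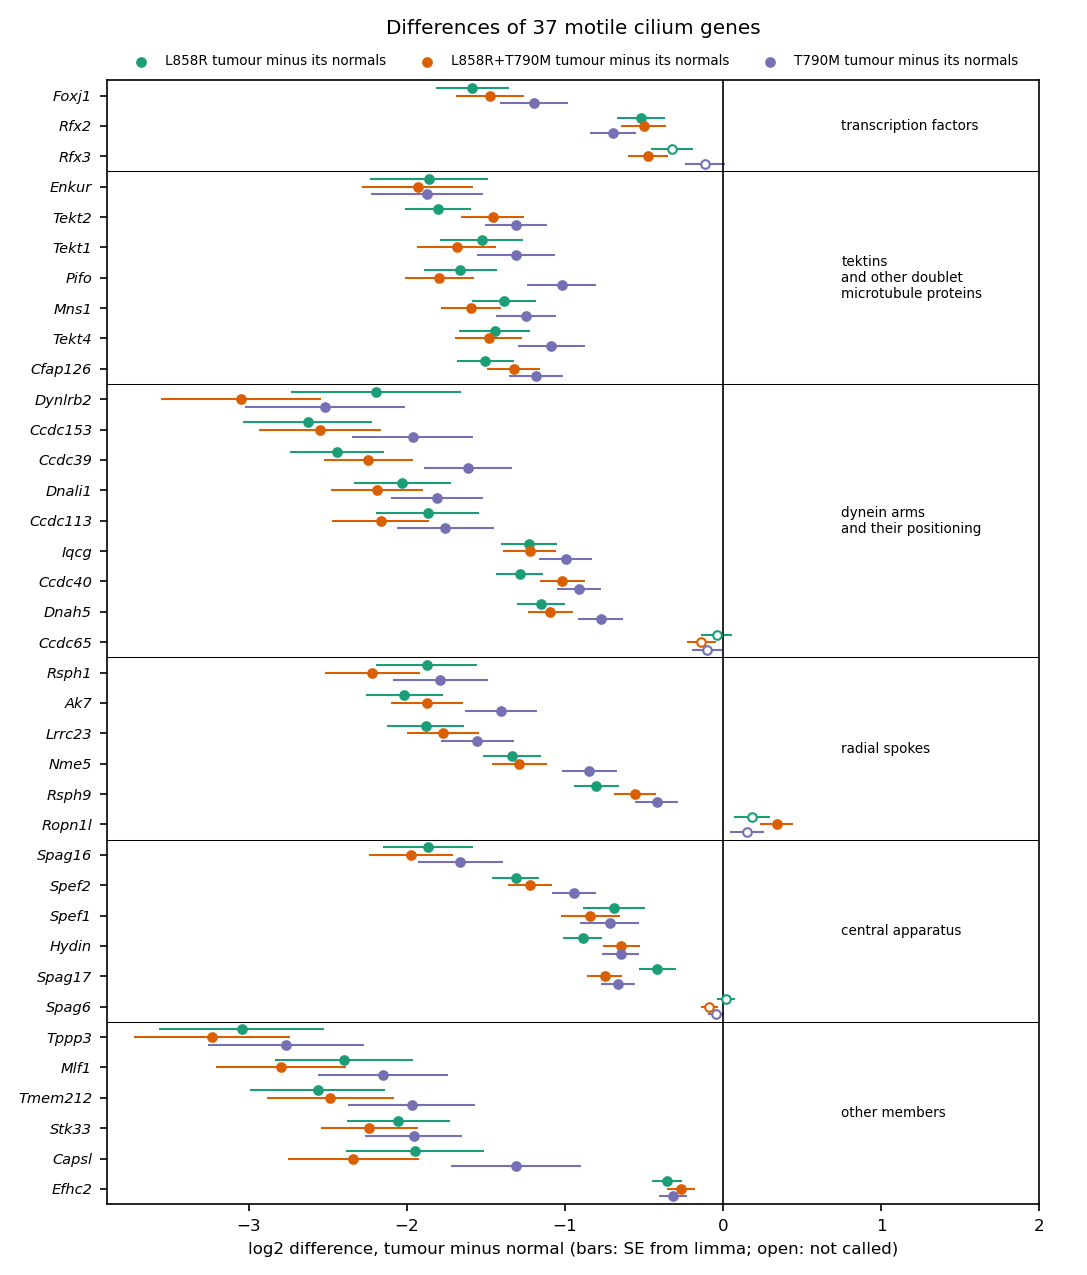
Log2 difference between tumours and the normal lungs of their strain label for 37 members, with SE bars; filled points were called at an adjusted p under 0.05. Tppp3 has the lowest values (-3.05, -3.23 and -2.77), and Ropn1l the highest (0.18, 0.34 and 0.15).

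Among the 3 transcription factors, Foxj1, the forkhead factor that multiciliated cells need to grow motile cilia, was the one that fell most. Foxj1 values were 8.69, 7.73, 8.24, 8.39 and 8.47 in the FVB normals and 7.98, 8.3, 8.04, 8.38 and 8.0 in the mixed-strain normals. The values were 6.86, 6.31, 6.54 and 6.51 in L858R tumours, 6.81, 6.65, 7.29, 6.6 and 6.81 in L858R+T790M tumours and 8.03, 6.56, 7.0, 6.7 and 7.24 in T790M tumours. Only 1 of the 14 tumours, T790M replicate 1 at 8.03, reached the range of its normals. The difference was -1.58 ± 0.23 (adjusted p = 1.05e-05), -1.47 ± 0.22 (adjusted p = 1.67e-05) and -1.20 ± 0.22 (adjusted p = 0.000149) in L858R, L858R+T790M and T790M tumours.

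The RFX factors moved less. Rfx2, an X-box-binding factor active in ciliated cells and in the testis, lay at 7.85 to 7.99 in FVB normals and 7.81 to 7.98 in mixed-strain normals. The tumours stood at 7.35, 7.45, 7.34 and 7.33 in L858R tumours, 7.3, 7.51, 7.38, 7.4 and 7.41 in L858R+T790M tumours and 7.66, 7.19, 7.42, 6.38 and 7.38 in T790M tumours. All were below their normals, and the differences of -0.52, -0.50 and -0.70 were called (adjusted p = 0.0085, 0.00823 and 0.000524). Rfx2 was not called in any of the 3 when the median over its 4 probe sets was used (-0.06, -0.06 and -0.17).

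Rfx3, which also serves primary cilia, was at 7.6, 7.36, 7.21, 7.23 and 7.62 in FVB normals and 7.4, 7.39, 7.31, 7.51 and 7.36 in mixed-strain normals. It stood at 7.33, 6.98, 7.3 and 6.68 in L858R tumours, 7.07, 7.06, 6.83, 6.98 and 6.71 in L858R+T790M tumours and 7.43, 7.32, 7.03, 7.61 and 7.06 in T790M tumours. It was called only in L858R+T790M tumours (-0.47 ± 0.13, adjusted p = 0.00515), the group in which all 5 arrays lay below every FVB normal. The L858R value was -0.32 ± 0.13 (adjusted p = 0.0596) and the T790M value -0.11 ± 0.13 (adjusted p = 0.51). In L858R tumours it was called once replicate 1 (-0.41) or replicate 3 (-0.40) was left out, and with all 10 normal lungs as 1 group (-0.33, adjusted p = 0.0246). Rfx3 was not called to differ between the L858R+T790M and T790M tumours (-0.36 ± 0.13, adjusted p = 0.141).

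The tektins, filament proteins that run inside the doublet microtubules, and the other doublet proteins formed the most even role: all 7 were called lower in each tumour type, with medians of -1.53, -1.60 and -1.24. Tekt1 values were 7.31, 6.95, 7.01, 7.22 and 7.27 in the FVB normals and 7.0, 7.42, 7.18, 7.4 and 7.01 in the mixed-strain normals. They were 5.88, 5.81, 5.65 and 5.36 in L858R tumours, 5.01, 5.6, 5.82, 5.19 and 5.71 in L858R+T790M tumours and 7.08, 5.05, 5.82, 5.35 and 5.91 in T790M tumours. Every tumour but T790M replicate 1 was below 6, and that array, at 7.08, was within the FVB normals. Tekt1 differed by -1.53 ± 0.26, -1.69 ± 0.25 and -1.31 ± 0.25, Tekt2 by -1.80, -1.46 and -1.31, and Tekt4 by -1.44, -1.48 and -1.09.

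Enkur, a doublet protein named for its binding of TRPC ion channels, was the lowest of this role. Enkur values were 8.48, 8.01, 7.94, 8.15 and 8.51 in the FVB normals and 8.04, 8.5, 8.06, 8.39 and 7.95 in the mixed-strain normals. In tumours the values were 6.6, 6.82, 5.88 and 6.01 in L858R tumours, 6.51, 5.69, 6.59, 5.89 and 6.75 in L858R+T790M tumours and 7.97, 5.79, 5.7, 5.35 and 6.92 in T790M tumours. The tumours lay below all normals except for T790M replicate 1, and the differences were -1.86 ± 0.37, -1.93 ± 0.35 and -1.87 ± 0.35.

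Pifo, a cilium protein with a role at the ciliary base, varied in another way. Pifo values were 9.18, 8.83, 8.73, 8.9 and 9.21 in the FVB normals and 8.73, 8.98, 8.74, 8.94 and 8.71 in the mixed-strain normals. In tumours it stood at 7.43, 7.26, 7.24 and 6.7 in L858R tumours, 7.19, 6.97, 7.62, 7.24 and 6.86 in L858R+T790M tumours and 8.61, 7.52, 7.21, 8.6 and 7.81 in T790M tumours. Among T790M tumours both replicate 1 and replicate 4 were high, although replicate 4 was low for Enkur, Tekt1 and Foxj1. The difference was -1.66 ± 0.23, -1.79 ± 0.22 and -1.02 ± 0.22. Mns1, a filament-like doublet protein, differed by -1.38, -1.60 and -1.24, and Cfap126, which takes part in placing basal bodies, by -1.50, -1.32 and -1.18.

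Of the 9 members grouped under dynein arms and their positioning, 8 were called lower in each tumour type, with medians of -1.87, -2.17 and -1.61. The grouping is broad and not limited to arm proteins. Ccdc153, Iqcg and Ccdc65, for example, are subunits of the nexin-dynein regulatory complex. Dynlrb2, a roadblock-type light chain of dynein, was the lowest in L858R+T790M and T790M tumours, and Ccdc153 in L858R tumours. Dynlrb2 values were 10.31, 9.9, 9.78, 9.96 and 10.31 in the FVB normals and 10.2, 10.75, 10.11, 10.7 and 9.84 in the mixed-strain normals. Its tumour values were 8.87, 8.18, 7.81 and 7.64 in L858R tumours, 6.52, 6.24, 8.1, 7.05 and 7.11 in L858R+T790M tumours and 9.66, 6.26, 7.3, 5.87 and 8.57 in T790M tumours. No tumour overlapped its normals, but the T790M tumours spread from 5.87 to 9.66. The difference was -2.19 ± 0.54, -3.05 ± 0.51 and -2.52 ± 0.51, or 4.58-fold, 8.27-fold and 5.74-fold lower (adjusted p = 0.00224, 6.49e-05 and 0.000419).

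Ccdc153 is a component of the nexin-dynein regulatory complex. Ccdc153 values were 9.89, 9.42, 9.23, 9.71 and 9.93 in the FVB normals and 9.66, 10.54, 9.91, 10.17 and 9.6 in the mixed-strain normals. Its tumour values were 8.02, 7.26, 7.29 and 6.82 in L858R tumours, 6.68, 6.61, 7.87, 7.05 and 7.22 in L858R+T790M tumours and 9.39, 6.88, 7.21, 6.63 and 8.25 in T790M tumours. L858R and L858R+T790M tumours were all at or below 8.02, and T790M replicate 1, at 9.39, was the one tumour inside the normal range. The differences were -2.63 ± 0.41, -2.55 ± 0.38 and -1.96 ± 0.38.

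Ccdc39 and Ccdc40 form the molecular ruler that spaces dynein arms along the doublet. Ccdc39 lay at 8.14, 7.78, 7.48, 7.86 and 8.0 in FVB normals and 8.35, 8.52, 7.99, 7.95 and 7.43 in mixed-strain normals. Its tumour values were 6.08, 5.43, 5.74 and 5.17 in L858R tumours, 5.28, 5.54, 6.21, 5.48 and 5.53 in L858R+T790M tumours and 7.39, 5.93, 6.01, 5.38 and 6.48 in T790M tumours. All 14 tumours were below their own normals, and the differences were -2.44 ± 0.30, -2.24 ± 0.28 and -1.61 ± 0.28. Ccdc40, its partner, differed by -1.29, -1.02 and -0.91. Ccdc39 was not called in any of the 3 with the median over its 3 probe sets (-0.23, -0.10 and -0.11).

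Dnah5, the heavy chain of the outer dynein arm that is often mutated in primary ciliary dyskinesia, differed less. Dnah5 values were 7.35, 7.42, 7.41, 7.87 and 7.81 in the FVB normals and 7.52, 7.84, 7.71, 7.89 and 7.44 in the mixed-strain normals. The tumours were at 6.39, 6.59, 6.55 and 6.58 in L858R tumours, 6.2, 6.73, 6.58, 6.52 and 6.37 in L858R+T790M tumours and 7.32, 6.52, 6.61, 6.6 and 6.95 in T790M tumours. All 14 tumours were below their normals, with T790M replicate 1 closest at 7.32 against a lowest FVB normal of 7.35. The differences were -1.15 ± 0.15, -1.09 ± 0.14 and -0.77 ± 0.14. Dnali1, an inner-arm light intermediate chain, differed by -2.03, -2.19 and -1.81, Ccdc113 by -1.87, -2.17 and -1.76, and Iqcg, a regulatory complex subunit, by -1.23, -1.22 and -0.99.

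Ccdc65, another subunit of that regulatory complex, was the exception in this role. Ccdc65 values were 6.02, 5.85, 5.94, 5.9 and 6.03 in the FVB normals and 5.92, 6.23, 5.87, 6.11 and 5.88 in the mixed-strain normals. It stood at 5.7, 6.01, 6.24 and 5.9 in L858R tumours, 5.69, 6.02, 5.8, 5.77 and 5.78 in L858R+T790M tumours and 6.07, 5.92, 5.79, 5.73 and 5.72 in T790M tumours. The groups overlapped in each comparison, and the differences of -0.04 ± 0.10, -0.14 ± 0.09 and -0.10 ± 0.09 were not called (adjusted p = 0.783, 0.283 and 0.418). Ccdc65, Ropn1l and Spag6, the 3 members called lower in no comparison, are all among the 15 members whose probe sets are among the 6064 dimmest genes by mean value. The rest of these 15 were called lower in all 3 comparisons. Among them were Iqcg, with an FVB normal mean of 5.99 against 5.95 for Ccdc65, and Spag17, with 4.97. Of the other 22 members, Rfx3 alone missed a call.

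Radial spokes carry signals from the central apparatus to the dyneins. Of the 6 spoke members, 5 were called lower in each tumour type. Rsph1, a spoke-head protein, lay at 8.72 to 9.28 in FVB normals and 8.8 to 9.42 in mixed-strain normals. It was at 7.55, 6.91, 7.3 and 7.02 in L858R tumours, 6.66, 6.67, 7.47, 6.47 and 6.9 in L858R+T790M tumours and 8.67, 6.54, 7.0, 6.42 and 7.69 in T790M tumours. All 14 tumours were below their normals, by -1.88 ± 0.32, -2.22 ± 0.30 and -1.79 ± 0.30 on average.

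Ak7, an adenylate kinase of motile cilia, was at 9.19 to 9.59 in FVB normals and 8.99 to 9.81 in mixed-strain normals. The tumours had 7.75, 7.39, 7.19 and 7.03 in L858R tumours, 7.47, 7.36, 7.92, 7.3 and 7.28 in L858R+T790M tumours and 8.96, 7.51, 7.41, 7.55 and 8.25 in T790M tumours. No tumour overlapped its normals, and the differences were -2.02 ± 0.24, -1.87 ± 0.23 and -1.40 ± 0.23. Lrrc23, a spoke protein, differed by -1.88, -1.77 and -1.55 and Nme5 by -1.33, -1.29 and -0.85.

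Rsph9, a spoke-head protein like Rsph1, fell least among the called members of this role. FVB normals ranged from 8.51 to 9.0 and mixed-strain normals from 8.65 to 9.17. The tumours were at 8.39, 7.85, 8.01 and 7.82 in L858R tumours, 8.14, 8.43, 8.3, 8.0 and 8.25 in L858R+T790M tumours and 8.7, 8.03, 8.27, 8.31 and 8.5 in T790M tumours. Only T790M replicate 1, at 8.70, was inside the range of its normals. Its differences were -0.80 ± 0.14, -0.56 ± 0.13 and -0.42 ± 0.13, and the T790M call was lost without T790M replicate 2 (-0.34, adjusted p = 0.0532).

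Ropn1l, a spoke-stalk protein, was the one member called higher. Ropn1l values were 5.64, 5.59, 5.62, 5.52 and 5.8 in the FVB normals and 5.65, 5.8, 5.79, 5.75 and 5.48 in the mixed-strain normals. In tumours it was 5.87, 5.79, 5.95 and 5.9 in L858R tumours, 6.06, 6.18, 5.79, 5.89 and 5.95 in L858R+T790M tumours and 5.86, 6.11, 5.9, 5.32 and 5.74 in T790M tumours. The L858R+T790M values began just below the highest FVB normal, so the groups overlapped. The difference was 0.18 ± 0.11 (adjusted p = 0.203), 0.34 ± 0.11 (adjusted p = 0.0149) and 0.15 ± 0.11 (adjusted p = 0.274). It was also called in T790M tumours without replicate 4 (0.27, adjusted p = 0.0177) and with array weights (0.19, adjusted p = 0.0436), and its further probe set was called in none.

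The central apparatus members had smaller differences than the tektins, with medians of -0.79, -0.79 and -0.69, and 5 of 6 were called lower in each tumour type. Spag16 was the lowest of them. Spag16 values were 9.01, 7.99, 7.78, 7.79 and 8.6 in the FVB normals and 8.05, 8.74, 8.28, 8.12 and 8.01 in the mixed-strain normals. In tumours the values were 6.3, 6.39, 6.34 and 6.47 in L858R tumours, 6.01, 6.37, 6.38, 6.32 and 6.22 in L858R+T790M tumours and 7.73, 6.05, 6.2, 6.02 and 6.86 in T790M tumours. L858R and L858R+T790M tumours were all at or below 6.47, and each of the 14 tumours was below its normals. The differences were -1.86 ± 0.28, -1.97 ± 0.27 and -1.66 ± 0.27, but 3 further probe sets of Spag16 did not fall. Their median with the first gave 0.03, -0.10 and -0.13, none of them called. Of these further probe sets, 1 was called higher in L858R tumours (0.14, limma adjusted p = 0.0193 over all probe sets of 1 gene).

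Hydin, a large protein of a central pair projection, was at 7.87 to 8.24 in FVB normals and 7.98 to 8.39 in mixed-strain normals. It ranged from 6.93 to 7.62 in L858R, 7.16 to 7.61 in L858R+T790M and 7.2 to 7.59 in T790M tumours, without overlap. The differences were -0.89, -0.64 and -0.65. Spef2 and Spag17, which belong to other projections, differed by -1.31, -1.22 and -0.94 and by -0.42, -0.75 and -0.66, and Spef1, a microtubule-bundling protein, by -0.69, -0.84 and -0.72.

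Spag6 was not called in any comparison, and its near copy was lower in each. Spag6 lay at 3.85, 3.82, 3.74, 3.75 and 3.87 in FVB normals and 3.83, 3.66, 3.6, 3.66 and 3.61 in mixed-strain normals. Tumours were at 3.71, 3.68, 3.65 and 3.72 in L858R tumours, 3.59, 3.73, 3.85, 3.66 and 3.77 in L858R+T790M tumours and 3.73, 3.7, 3.75, 3.69 and 3.94 in T790M tumours. All 24 values were between 3.59 and 3.94, and the differences of 0.02 ± 0.06, -0.09 ± 0.05 and -0.04 ± 0.05 were not called. Spag6l, the near copy of Spag6, is no member and was looked up after these values were seen. It had 7.6, 7.26, 7.02, 7.27 and 7.46 in FVB normals and 7.16, 7.53, 7.36, 7.62 and 7.12 in mixed-strain normals. Its tumour values were 5.89, 5.86, 5.57 and 6.02 in L858R tumours, 5.76, 5.85, 6.45, 5.82 and 5.48 in L858R+T790M tumours and 7.13, 5.81, 6.02, 5.79 and 6.51 in T790M tumours. T790M replicate 1 was the one tumour within the range of its normals, and the differences were -1.52 ± 0.22, -1.45 ± 0.21 and -1.07 ± 0.21, each called. Probe sets of such near copies may share target sequence, which was not tested.

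The remaining members, which were placed in none of the roles above, included the largest difference of the group. Tppp3 encodes a tubulin polymerization-promoting protein. Tppp3 values were 12.24, 12.01, 12.15, 12.07 and 11.74 in the FVB normals and 12.43, 12.58, 12.1, 12.52 and 12.3 in the mixed-strain normals. In tumours it was 10.45, 9.2, 9.52 and 8.19 in L858R tumours, 8.4, 7.52, 10.3, 8.89 and 8.93 in L858R+T790M tumours and 11.17, 8.39, 8.82, 8.14 and 9.86 in T790M tumours. All 14 tumours were below their normals, and the tumours spread over more than 3 log2 units. Tppp3 was 8.26-fold, 9.41-fold and 6.8-fold lower (-3.05 ± 0.52, -3.23 ± 0.49 and -2.77 ± 0.49; adjusted p = 7.56e-05, 2.62e-05 and 0.000136).

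Mlf1 and Tmem212 followed. Mlf1, a protein of ciliated and blood-forming cells, lay at 8.32 to 9.09 in FVB normals and 8.3 to 8.83 in mixed-strain normals. In tumours it was 7.08, 6.08, 5.89 and 5.48 in L858R tumours, 5.56, 5.42, 6.56, 5.77 and 5.76 in L858R+T790M tumours and 8.31, 5.18, 6.45, 5.43 and 6.92 in T790M tumours. T790M replicate 1 alone came near the normals, just under the lowest of them, and the differences were -2.40 ± 0.44, -2.79 ± 0.41 and -2.15 ± 0.41.

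Tmem212, a membrane protein, lay at 9.92 to 10.72 in FVB normals and 9.63 to 10.49 in mixed-strain normals. It was 7.79, 7.82, 7.3 and 7.45 in L858R tumours, 7.71, 7.28, 8.5, 7.47 and 7.98 in L858R+T790M tumours and 10.17, 7.39, 7.95, 6.96 and 9.05 in T790M tumours and differed by -2.56 ± 0.43, -2.48 ± 0.40 and -1.97 ± 0.40. T790M replicate 1 was inside the FVB range and replicate 5 was the next highest tumour. The kinase Stk33 differed by -2.05, -2.24 and -1.96.

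Capsl, a calcium-binding EF-hand protein, varied widely within the tumour groups. Capsl values were 8.56, 7.81, 7.95, 7.86 and 8.41 in the FVB normals and 8.0, 8.45, 8.05, 8.45 and 8.32 in the mixed-strain normals. In tumours the values were 7.1, 6.64, 6.44 and 5.05 in L858R tumours, 5.32, 5.6, 6.68, 5.85 and 5.45 in L858R+T790M tumours and 7.88, 4.94, 6.78, 7.27 and 7.16 in T790M tumours. T790M replicate 2 was the lowest of the 24 arrays and T790M replicate 1 was inside the normal range. The differences were -1.95 ± 0.44, -2.34 ± 0.41 and -1.31 ± 0.41. Efhc2, a doublet protein with EF-hand-type domains, had the smallest called differences of this role (-0.36, -0.27 and -0.32). Its L858R+T790M call was lost when FVB normal replicate 1 or 4, or L858R+T790M replicate 4 or 5, was left out (adjusted p from 0.0536 to 0.0751), and with each array centred on its median (-0.22, adjusted p = 0.054).

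The tumour arrays differed from one another in how far the whole group was lowered. The mean over the 37 members was 7.81 to 8.22 in the 10 normal lungs. In 10 tumours it lay between 6.30 and 6.57, whereas L858R replicate 1 had 6.80, L858R+T790M replicate 3 had 6.89, T790M replicate 5 had 7.04 and T790M replicate 1 had 7.69. In T790M replicate 1, 36 of 37 members were above the mean of the other T790M tumours, and 32 were above all 13 other tumours. That array had 25 members below every FVB normal and 10 within their range, against 33 to 36 members below in each of the other 13 tumours.

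Without T790M replicate 1 the T790M median moved from -1.20 to -1.43, and 33 members were again called lower. In that setting 40.3% of all genes were called in either direction. The members whose T790M arrays all lay below the FVB normals then rose from 24 to 33 of 37, against 15.9% of all genes.

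Other cell types changed in the same arrays. For these and the further cell type lists, the shares of all genes were 18.1%, 16.1% and 17.9% called lower. The shares called higher were 23.3%, 20.2% and 21.9%. Club cell markers, genes of the secretory cells beside multiciliated cells, were called lower for 10, 11 and 8 of 18 in the 3 comparisons, and all 12 endothelial markers were lower in L858R and L858R+T790M tumours, with 11 in T790M. Alveolar type 2 markers were called higher for 10, 10 and 8 of 13. In T790M replicate 1 the list means were -0.21 for club cells and -0.90 for endothelium relative to FVB normals, the least lowered of any tumour for each. T790M replicate 5 was the next least lowered tumour, both for club cells (-0.27) and for the cilium members (-0.95). In the other 12 tumours club cell means ran from -2.19 to -1.10, and member means from -1.69 to -1.10. Whether normal airway remaining beside a nodule had a part in the member values was not tested.

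**Figure D4:**
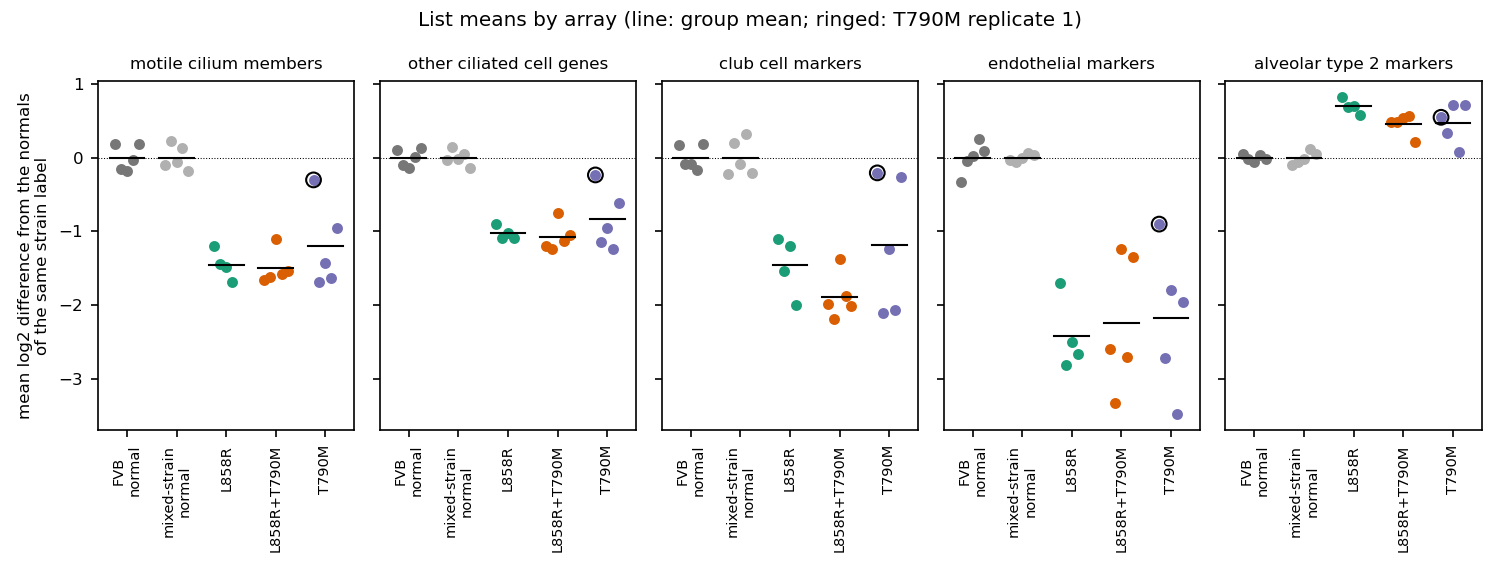
Mean log2 difference from the normal lungs of the same strain label in each of 24 arrays for the cilium members and 4 other lists; lines are group means and the ring marks T790M replicate 1. That array is at -0.30 for the members, -0.21 for club cells and -0.90 for endothelial markers, while alveolar type 2 markers are above 0 in all 14 tumours.

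Among the remaining lung cells, 8, 6 and 6 of 10 fibroblast markers and all 7 smooth muscle markers were called lower. Alveolar type 1 markers, from the flat cells of gas exchange, were called lower for 8, 6 and 9 of 12 and higher for 1, 3 and 0. T and B cell markers were called lower for 5, 6 and 6 of 8, and neuroendocrine markers for 3 of 7 each time, with 1 higher in L858R+T790M tumours. Macrophage markers were called higher for 6, 1 and 0 of 8 and lower for 1, 0 and 1. Basal cell markers, from the stem cells of larger airways, were called lower for 0, 1 and 3 of 7. Testis germ cell markers were called lower for 1, 1 and 0 of 10, and sperm is the other place where many axoneme genes are used. As a measure of RNA integrity, the 3′ minus 5′ log2 value of the Gapdh probe sets averaged -0.15 in L858R tumours and -0.26 in mixed-strain normals, a difference of 0.11 (two-sided exact permutation p = 0.0476, adjusted 0.143 over 3 comparisons). It averaged -0.12 in L858R+T790M tumours, -0.18 in T790M tumours and -0.15 in FVB normals (exact permutation p = 0.389 and 0.333).

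Other parts of the axoneme were lower with the members. In lists chosen by gene name, 187 of 220 other cilium genes were measured. Of all genes, 18.1%, 16.1% and 17.9% were called lower in the 3 comparisons, and 23.3%, 20.2% and 21.9% higher. Of 19 further dynein arm and docking genes, 14 were called lower in each comparison, among them the inner-arm heavy chain Dnah12 (-1.80, -1.80 and -1.51) and the intermediate chain Wdr63 (-1.53, -1.80 and -1.54). In L858R tumours 2 of the 19 were called higher, Nme8 (0.29) and Dnal4 (0.22), and 0 in the other comparisons. Of 29 further spoke, nexin and central apparatus genes, 18, 20 and 21 were lower, led by the spoke-head gene Rsph4a (-2.65, -2.61 and -2.29), and 1 was higher each time. Of 19 further doublet proteins 11 were lower each time, led by 1700007K13Rik (-3.13, -3.29 and -2.59) and Cfap161 (-2.13, -2.29 and -1.68), and 1, 1 and 2 were higher.

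Genes listed as ciliated cell genes outside the axoneme, not all of which lie outside it, were lower for 18, 19 and 18 of 26 and higher for 1, 0 and 2. The lowest from this list were Fam183b at -2.34, -2.75 and -2.05 and Tm4sf1 at -2.46, -2.03 and -2.05. How far the listed genes are limited to ciliated cells was not tested. Dynein assembly factors, which preassemble the arms in the cytoplasm, were lower for 7, 8 and 6 of 17 and higher for 1, 0 and 1. Lrrc6, from this list, stood at -1.51, -1.43 and -1.13. Genes for multiciliated cell fate and centriole amplification were called lower for 5, 6 and 5 of 19 (18.1%, 16.1% and 17.9% of all genes) and higher for 0, 1 and 2, with list medians of 0.01, -0.06 and -0.10 beside 0.05, 0.03 and 0 for all genes. Myb, an early regulator of that fate, was the lowest of them at -2.66, -2.43 and -2.17.

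Intraflagellar transport and primary cilium genes, which most cell types use, were lower for 20, 12 and 11 of 46. They were higher for 3, 3 and 7 of 46. Of all genes, 18.1%, 16.1% and 17.9% were called lower and 23.3%, 20.2% and 21.9% higher. Ofd1, a centriole protein, was higher in all 3 tumour types (1.91, 1.60 and 1.39), and so was Ift20 (0.82, 0.57 and 0.69). Paralogues of members that do not belong to the axoneme were lower for 4, 5 and 3 of 12 and higher for 3, 4 and 4. Tppp, the relative of Tppp3 best known from oligodendrocytes, was lower as well (-2.64, -2.94 and -2.47). A few axoneme genes ran the other way: Ccdc189 was higher in all 3 (1.27, 0.91 and 1.13), and Cfap52 was called higher in L858R+T790M tumours (0.06, 1.17 and -0.05). Cfap20 was called higher in L858R and T790M tumours (0.35, 0.15 and 0.44 in the 3 comparisons).

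**Figure D5:**
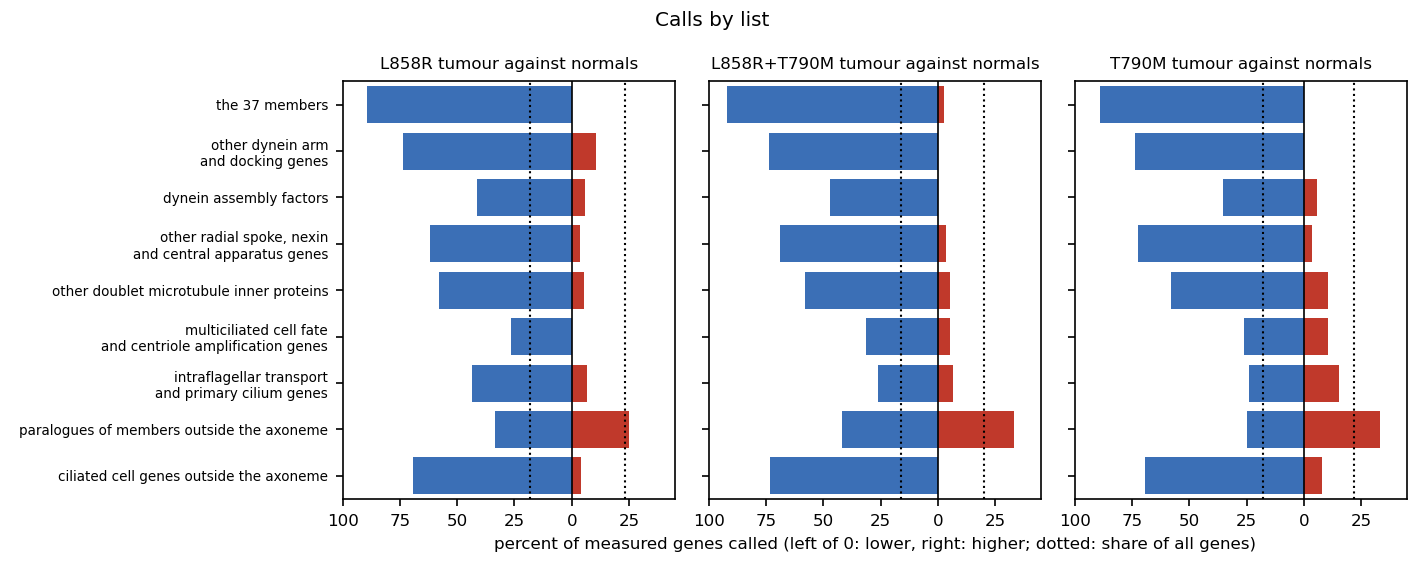
Percent of measured genes called lower (left of 0) or higher (right of 0) for the 37 members and 8 lists of other cilium genes in the 3 comparisons of tumours with normal lungs; dotted lines give the share of all genes. The members reach 89.2%, 91.9% and 89.2% lower, and the intraflagellar transport and primary cilium genes 20, 12 and 11 of 46.

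No member was called between tumour types. Between L858R+T790M and T790M tumours, 289 genes (1.59%) were called and 0 members by limma, and 6 members were below an unadjusted p of 0.05 against 17.1% of all genes. Of the 37 members, 33 were lower in L858R+T790M tumours, called or not (45.7% of all genes), with a median of -0.31, and without T790M replicate 1 these numbers were 22 and -0.05. The largest difference was Capsl (-1.03 ± 0.41, adjusted p = 0.199), and Pifo had the lowest p (-0.77 ± 0.22, adjusted p = 0.0745). Pifo was called when L858R+T790M replicate 3 (-0.89), T790M replicate 2 (-0.88) or T790M replicate 3 (-0.96) was left out, and Capsl without T790M replicate 2 (-1.49) and with array weights (-1.27).

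The L858R tumours carry another strain label, so their difference from normals was set against that of the other tumours. Against L858R+T790M tumours 0.0715% of genes and 0 members were called, and 0 members were below an unadjusted p of 0.05 (9.54% of all genes). The member median was 0.04, and the widest gap was Dynlrb2 (0.85 ± 0.74). Against T790M tumours 0.418% of genes and 0 members were called, with 0 below an unadjusted p of 0.05 (14.7% of all genes), a median of -0.24, and the widest gap in Ccdc39 (-0.83 ± 0.41). A missing call does not show that the members are alike in these tumours.

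The normal lungs of both strain labels were also compared. Of all genes 1.04% were called, and 0 members were by limma, with 1 member below an unadjusted p of 0.05, against 15.3% of all genes (Spag6, -0.13 ± 0.05). The median member difference, mixed-strain minus FVB, was 0.01, with Mns1 at -0.35 and Tppp3 at 0.34 as the ends of the range.

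Within groups the members tended to be high or low in the same arrays. After each group mean was subtracted, a member correlated with the mean of the other members at a median Pearson r of 0.831 over 24 arrays, and 0.729 without T790M replicate 1. Ccdc153 (0.977), Dnali1 (0.960) and Rsph1 (0.955) followed the others most closely, and Ropn1l (0.05) and Rfx3 (0.14) least. These correlations describe arrays that share the same tissue pieces and carry no test.

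Genes outside all lists were also ranked by likeness to the mean of the members, with clone and predicted names passed over. The first were Agr3 (r = 0.959), Hoatz (0.955), Stmnd1 (0.922), Col8a2 (0.916) and Lrrc34 (0.915), over the same 24 arrays. Agr3 encodes a protein disulphide isomerase of the airway lining. Each was also called lower in the 3 tumour types, by -2.35, -2.47 and -2.16 for Agr3 and by -2.72, -3.18 and -2.69 for Hoatz. Without T790M replicate 1, r was 0.913 for Agr3, 0.903 for Hoatz, 0.884 for Stmnd1 and 0.861 for Col8a2. Efcab10 (0.845) then took the place of Lrrc34.

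Of the 37 members, 10 have further probe sets annotated to them alone, 16 in all. In all 3 comparisons 6 of these 16 were called lower, those of Dnali1, Spag17 and Spef2 among them, and 8 were called in none. The further probe sets of Hydin, Rfx3 and Ropn1l were among those not called lower in any comparison.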

How the data were processed

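Expression was read on Affymetrix mouse genome arrays from RNA of 24 lung samples, per the labels' protocols. The authors deposited log2 values per probe set, and the submitters' processing notes name RMA. Its version is not given in the sources used here. Array medians lay between 7.21 and 7.34, and no further scaling was applied. Array data give no counts, so the 4 or 5 arrays of each group limit the precision.

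Of 45101 probe sets, 34945 had 1 gene in the platform annotation, 932 several and 9160 none, and symbols of 34741 were updated by Entrez identifier. For each of 18193 genes the probe set of highest mean stood for the gene. The limma model (limma 3.58.1, R 4.3.3) held the means of the 5 groups (19 residual degrees of freedom, eBayes with trend). Two-sided p-values were adjusted by Benjamini-Hochberg over all genes, with calls at an adjusted p under 0.05. The fit was tested on simulated data. Each tumour group was set against normals of its strain label. Differences are tumour minus normal, in log2 units ± SE. No deposited column lacked a sample label.

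The members and the lists were chosen with earlier results of these data known. All measured members could be named; values in every array are printed for those the results turn on and ranges or differences for the rest. Of each other list, up to 2 lowest and 2 highest genes could be named. Likeness to the members was the Pearson correlation of deviations from group means. The 5 genes outside the lists with the highest r were named, clone and predicted names passed over. Motifs were searched in RefSeq promoters (GRCm38.p6), and sequences were read on the strand of the gene.

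The alternatives were median centring, quantile normalization again, the median over probe sets, array weights, no trend, dropping the 6064 dimmest genes, only the groups compared, pooling the 10 normals, a block for the replicate number, an adjusted p under 0.01, a 2-fold minimum and leaving out each array. The string CCGTTG, the near copy Spag6l, every probe set of a member, and separation and likeness without T790M replicate 1 were added after the data were seen.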

Additional observations from a re-analysis of the deposited data

Results flagged for a closer look

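In 6 of 190 sets of values (each member, and the mean of the members, in each group of 4 or 5 arrays), 1 array lay far from the rest by Dixon's criterion; chance alone marks about 1 in 20 such sets. L858R+T790M replicate 3 was marked in 3 of them. It had a Ccdc39 value of 6.21 against 5.28 to 5.54 in the other L858R+T790M tumours, a Stk33 value of 5.27 against 4.54 to 4.63, and a mean over the members of 6.89 against 6.34 to 6.45. The same array had the least lowered club cell (-1.38), endothelial (-1.24) and fibroblast (-0.88) list means of its group. The part of these in the member values was not tested. Rfx2 stood at 7.45 in L858R replicate 2, against 7.33 to 7.35 in the other L858R tumours. Spag6 stood at 3.83 in mixed-strain normal replicate 1, against 3.6 to 3.66, and at 3.94 in T790M replicate 5, against 3.69 to 3.75. T790M replicate 1, the tumour with the highest member mean, was not marked in any set.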

How the results depend on the processing

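The direction and the call of each member in the 3 comparisons with normal lungs were kept in 1997 of 2027 cases under other settings; 15 calls were lost, 1 of them with a change of sign (Spag16 in L858R tumours), 5 were gained, and 11 differences changed sign, 0 of them called after the change. Ccdc65 in L858R tumours became positive with median centring (0.031) and array weights (0.0092), and ran from -0.132 to 0.048 when 1 array was left out. Spag6 in L858R tumours became negative with quantile normalization again (-0.025), array weights (-0.00035) and all 10 normals as 1 group (-0.049), and in T790M tumours positive with centring (0.002), array weights (0.021) and 1 normal group (0.023). Spag16 in L858R tumours became 0.0255 with the median over probe sets. Dropping the 6064 dimmest genes removed 15 members and left 21, 22 and 21 called in L858R, L858R+T790M and T790M tumours, with medians of -1.76 in L858R and -1.78 in L858R+T790M tumours. Leaving out 1 array at a time gave 33 to 34, 34 to 35 and 32 to 34 called members, with medians from -1.60 to -1.47, -1.62 to -1.45 and -1.43 to -1.06. Between L858R+T790M and T790M tumours it gave 0 to 2 called members, and array weights gave 1 (Capsl). With all 10 normals as 1 group, 1 member (Pifo, -0.79) was called between L858R and T790M tumours. The cause of these changes was not tested. With the replicate number as a block, 33, 35 and 33 members were called in the tumours against normals and 0 between tumour types; same-numbered tumours and normals correlated between -0.28 and 0.21, so the numbers are not known to pair samples. Dim probe sets limit what can be said of Spag6, Ccdc65 and Ropn1l, although the other members with dim probe sets were called lower in all 3 comparisons.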
